A study of Sus scrofa with 40 samples.

Results

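The genes described here encode the proteins of the cytosolic ribosome, and they were followed in coronary endothelial cells of the pig. A probe set, a group of short array sequences that together report 1 transcript, was counted when the authors' deposited tables gave it a title naming a ribosomal protein of the L or S series or a symbol of the form RPL or RPS with a number. Titles naming a mitochondrial ribosomal protein or a kinase were left out. This gave 41 of the 24123 probe sets on the array, 19 for the large subunit and 22 for the small subunit. By title they stand for 28 genes, of 2709 distinct gene titles in those tables, 15 of the large and 13 of the small subunit, and 10 genes have more than 1 probe set.

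The cytosolic ribosome joins amino acids into protein. Its small subunit holds the messenger RNA and reads the codons, and its large subunit forms the peptide bond and leads the growing chain out through a tunnel. Each ribosome carries nearly every one of these proteins once, and in mammals their messenger RNAs share a pyrimidine-rich start (the 5′ TOP motif) through which their translation is controlled together. Several of the proteins also act away from the ribosome, for example by binding the p53 regulator MDM2 when ribosome assembly fails.

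RNA came from primary cultures (passage 0, 10 days) of endothelial cells, the cells that line arteries, scraped from hearts of female farm pigs aged 4 months. Native cells were taken from the left circumflex artery (LCX), and regenerated cells from the section of the left anterior descending artery (LAD) whose lining had been stripped earlier and had regrown, so that artery and regeneration cannot be told apart. The animals were 8 controls, 6 on a high-cholesterol diet (CHL) and 6 in a group rich in polyunsaturated fatty acids that the title calls rich in fish oil (FO). Each animal was counted as 1 native and 1 regenerated culture on 1 array each, which gave 40 arrays in 6 groups.

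Levels are log2(signal + 16) of the deposited MAS5 intensities, and a difference of 1 on this scale is a 2-fold difference in signal + 16. The median signal of an array ran from 75.7 to 121, and the number of arrays limits the precision. The measured endothelial markers, 9 genes, averaged between 8.25 and 8.95 in every array, while the 8 smooth muscle markers averaged from 7.72 to 10.97. Single endothelial markers moved both ways, by -1.22 to 1.02 in control pairs, with 3 of 7 tested higher. In the mean of the 3 diets 4 of 5 fibroblast markers were lower in regenerated cells, 1 of them past the adjusted threshold given below. All 3 tested adipocyte markers were higher, 2 of them past it. In the 8 control pairs the smooth muscle markers differed between regenerated and native cells by 1.22 ± 1.05 (SD, n = 8), in the CHL pairs by -0.04 ± 0.53 (n = 6) and in the FO pairs by 0.63 ± 1.02 (n = 6). In whole cultures, fewer cells of a type and less RNA per cell cannot be told apart. On the regenerated array of control animal 6 the 3′/5′ signal ratio of actin was 264, and on that of FO animal 3 it was 422. The GAPDH ratio was 1010 and 59.9 on these arrays. Both arrays exceed a limit of 10 chosen here for the larger of the 2 ratios. Their animals are those with a high actin ratio, or degraded RNA, below. The next highest actin ratios were on the regenerated arrays of control animals 5 (6.89) and 4 (4.48), against 1.43 and 1.39 on their native arrays. Their GAPDH ratios were 1.48 and 1.37 on the regenerated arrays. The animal labels have 3 forms: 5 controls carry MA numbers, 3 animals (1 per diet group) carry 4-digit numbers, and 12 animals (2 controls, 5 CHL and 5 FO) carry 3-digit numbers. What the forms stand for is not given in the labels. Both cultures of an MA pair, and of FO pair 6, carry different numbers in their labels, so only the replicate numbers tie them together.

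The titles of the 41 probe sets were set against the descriptions of the probed sequences in the same deposited tables. For 26 probe sets the description also named a ribosomal protein, 15 of the large and 11 of the small subunit. For 7 it named a transcribed locus and no protein, for 2 there was none, and for 3 it named a hypothetical protein. For 3 it named another protein: both RPL35 probe sets were described as RAB5A, a small GTPase of early endosomes, and the RPS4 probe set as beta-catenin, a protein of cell junctions and Wnt signalling. The 26 and the other 15 are given apart below, a division made after the values had been seen. A further 36 probe sets were described as ribosomal proteins but had no title among those used, and they serve as a comparison outside the rule.

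The 26 described probe sets lay at the bright end of the arrays. Of the 240 probe sets in the top 1% by mean level, 20 were described ribosomal protein probe sets, 2 were other members by title and 22 were among the 36 outside the rule. Brightness also depends on the probes and is no measure of RNA amount between genes. The median within-group SD was 0.327 for the 26, 0.424 for the other 15 and 0.448 for all 17999 probe sets tested, which were not matched by level. Among the 26 the SD ran from 0.197 to 0.852, the highest being that of RPL32.

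Among large-subunit genes, RPL11, which joins the 5S RNA particle and binds MDM2, had a mean level of 14.01 ± 0.24 (SD, n = 8) in native and 13.97 ± 0.16 (n = 8) in regenerated control cells. In CHL cells it was 14.19 ± 0.31 (n = 6) and 14.15 ± 0.39 (n = 6), and in FO cells 13.98 ± 0.45 (n = 6) and 13.94 ± 0.36 (n = 6). The order of these 6 means therefore ran over less than the SD of most groups, and no neighbours in it differed beyond their spread. RPL10, which is added late and completes the large subunit, ran from 13.98 ± 0.28 (n = 6) in regenerated FO cells to 14.21 ± 0.41 (n = 6) in regenerated CHL cells. RPL4, which lines the exit tunnel, ran from 13.38 ± 0.14 (n = 8) in regenerated control cells to 13.61 ± 0.22 (n = 6) in native CHL cells.

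Bright probe sets of the small subunit had similarly narrow ranges. RPS3, which sits where messenger RNA enters, ran from 13.88 ± 0.30 (SD, n = 6) in regenerated FO cells to 14.13 ± 0.42 (n = 6) in regenerated CHL cells. RPSA, known also as the laminin receptor precursor, ran from 13.97 ± 0.26 (n = 6) to 14.20 ± 0.34 (n = 6) in the same groups. The groups of each of these genes overlapped. Other members spread more widely: the group means of RPS4 ran from 11.93 to 12.41, those of the RPS20 probe set with no description from 10.28 to 11.22, and those of the dimmer RPS23 probe set from 8.68 to 9.72.

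The mean of the 26 described probe sets summarises each array. Native control cells ranged from 12.57 through a median of 12.97 to 13.23, and regenerated control cells from 12.59 through 12.85 to 13.21. Native CHL cells ranged from 12.74 through 12.82 to 13.51, and regenerated CHL cells from 12.46 through 12.91 to 13.62. Native FO cells ranged from 12.16 through 12.98 to 13.42, and regenerated FO cells from 12.25 through 12.83 to 12.98. All 6 groups overlapped, and the lowest and highest arrays of the series lay in the FO and CHL groups. CHL animal 1 was the highest of its diet group in both cell types. FO animal 4 was the lowest of the native arrays, and FO animal 3, the animal with the high actin ratio, was the lowest of the regenerated FO arrays.

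**Figure D1:**
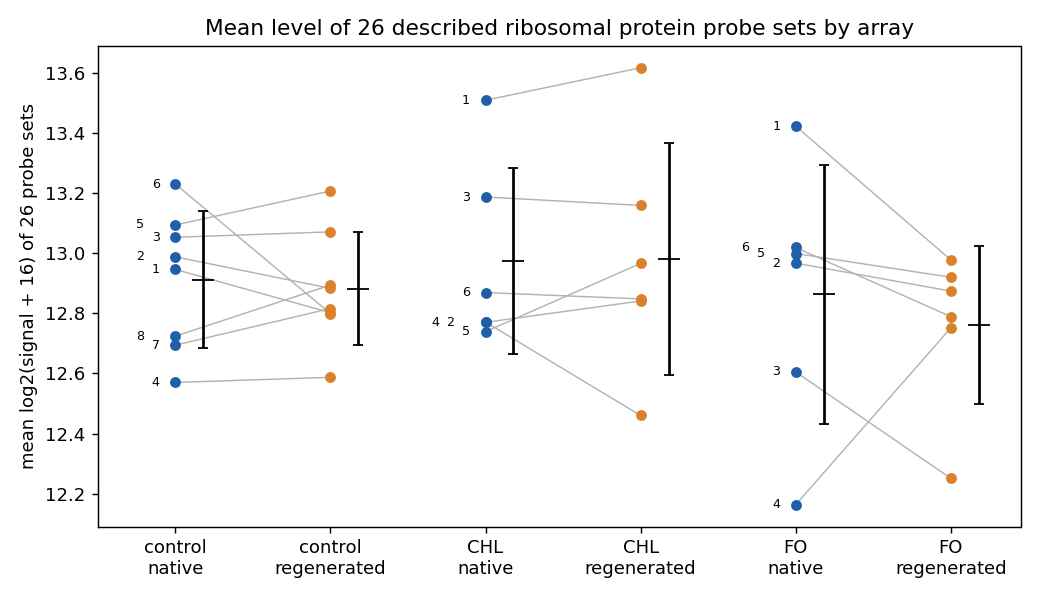
Mean log2(signal + 16) of the 26 described ribosomal protein probe sets on each of 40 arrays, with a grey line joining the native (blue) and regenerated (orange) array of each animal, whose number stands beside its native point; black bars are the mean ± SD of a group. The groups overlap, and the FO line that climbs is animal 4, with a difference of 0.59.

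The first question of the design was whether regenerated and native cells of the same animal differed. In a limma fit with the animal as a block and Benjamini-Hochberg adjustment over 17999 probe sets, 0 of 41 members passed the adjusted threshold of 0.05 in control pairs, where 0.289% of all probe sets passed. In CHL pairs 0 of 41 passed, against 0.00556% of all, and in FO pairs 0 of 41, against 0.0389%. In the mean of the 3 diets 0 of 41 passed, against 2.67% of all, or 480 probe sets. At an unadjusted p under 0.05 there were 7 members in control pairs, 3 in CHL, 2 in FO and 9 in the mean. As shares these are 17.1%, 7.32%, 4.88% and 22% of the members, against 27.2%, 6.36%, 8.66% and 23.4% of all probe sets. The paired test that the study's design text names gave 0 members after adjustment in each diet, and 4, 3 and 2 at an unadjusted p under 0.05 in control, CHL and FO pairs. A p that misses the threshold does not show that the values did not differ.

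The sizes were small for the described probe sets. Their median difference, regenerated minus native, was -0.04 in control pairs, 0.00 in CHL pairs and -0.11 in FO pairs, with 19, 13 and 24 of 26 lower in regenerated cells. The medians over all probe sets were -0.02, 0.02 and 0.00. Of all probe sets 52.5%, 45.8% and 50.5% were lower in control, CHL and FO pairs. None of these sets of counts is a set of separate observations, because the probe sets moved together from array to array.

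Animal by animal, the mean of the 26 differed by -0.03 ± 0.20 (SD, n = 8) in control pairs, from -0.43 in animal 6 to 0.17 in animal 8. It differed by 0.01 ± 0.18 (n = 6) in CHL pairs and by -0.10 ± 0.37 (n = 6) in FO pairs. In FO pairs 5 of 6 animals were lower, and animal 4 was higher by 0.59. Without FO animal 4 the median of the 26 in FO pairs was -0.25, with 25 lower. Without the 2 animals with a high actin ratio it was -0.05, with 18 lower, and the control median turned from -0.04 to 0.03, with 20 of 26 higher. On 3-digit animals alone, 2 of them controls, the control median was 0.16, with 25 of 26 higher, and the FO median was -0.03, with 18 lower. The mean of the diets there turned from 21 of 26 lower to 22 of 26 higher. With quantile normalization of the arrays the FO median was 0.00 (-0.005), with 13 higher and 13 lower. The CHL median was then -0.05, with 22 of 26 lower, so the order of the diets changed with the normalization. The direction in control pairs thus depended on which animals were used, and quantile normalization left 17 of 26 lower there. In FO pairs the median stayed below 0 in each of these fits.

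**Figure D2:**
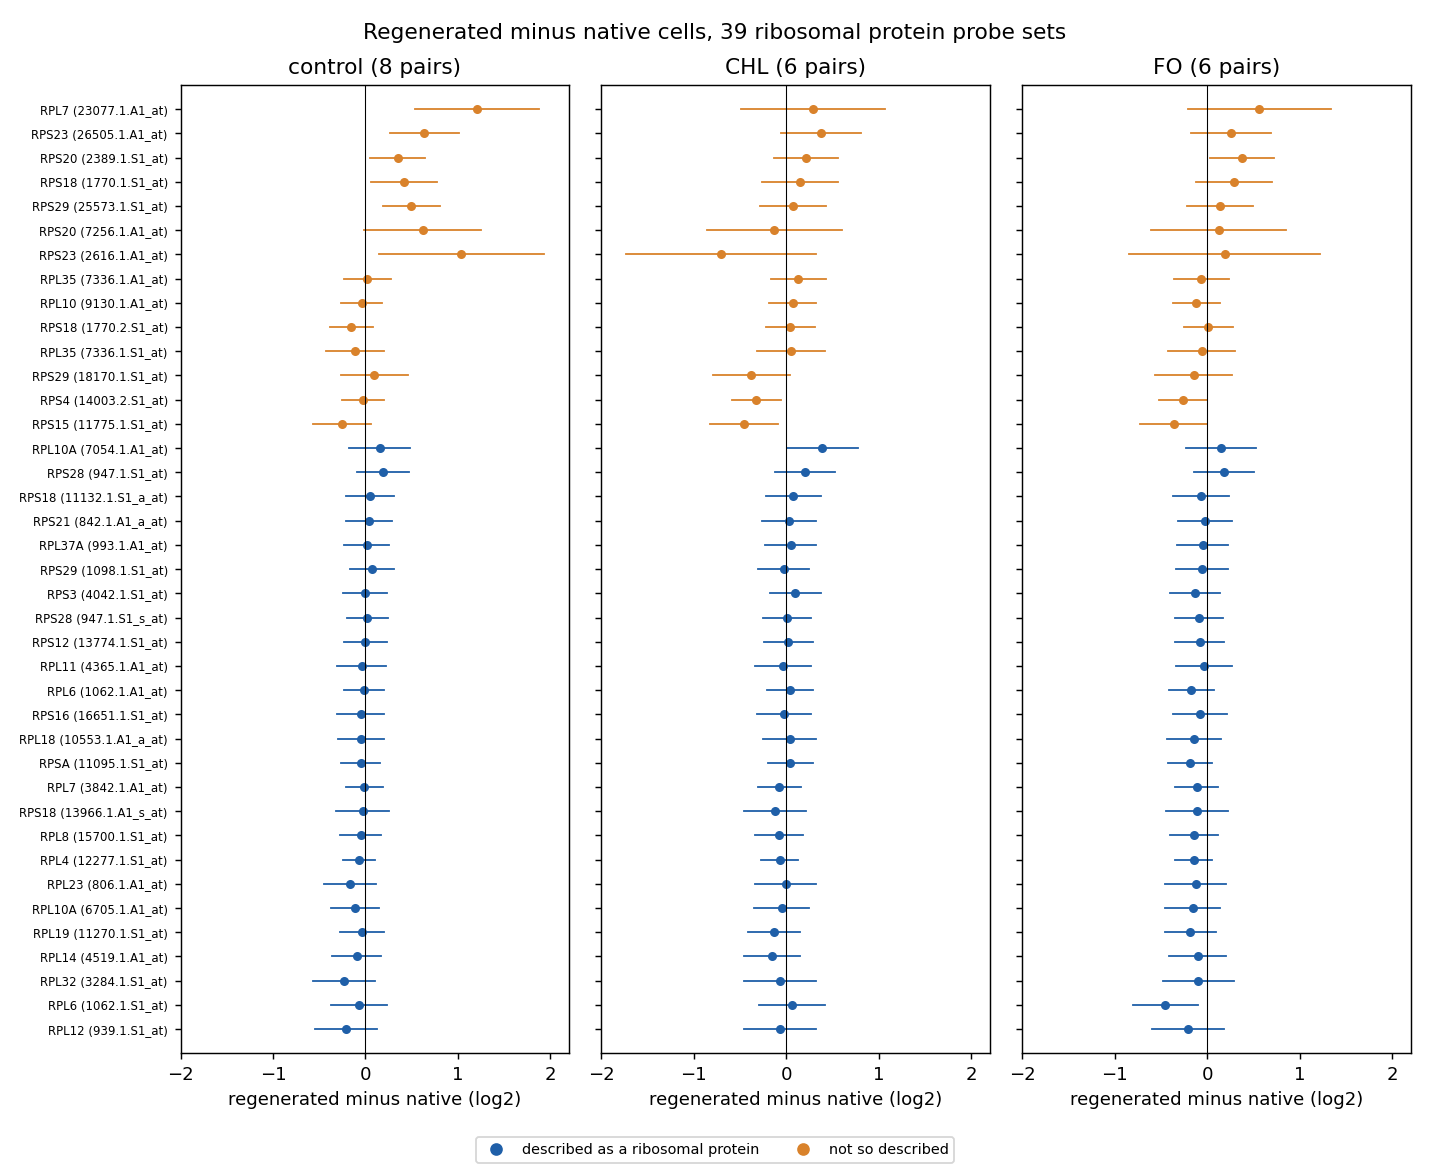
Difference between regenerated and native cells (log2) of 39 of the 41 probe sets in control, CHL and FO pairs, as points with the 95% interval of the limma fit; blue marks 25 probe sets described as ribosomal proteins and orange 14 others. Most blue points lie close to 0, and the farthest are the dimmer RPL6 probe set in FO pairs (-0.455) and the dim RPL10A probe set in CHL pairs (0.389). The points beyond 1 are RPL7 (1.21) and RPS23 (1.04) in control pairs.

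The largest paired differences lay among the 15 members not described as ribosomal proteins. In control pairs their median was 0.35, with 10 of 15 higher, and all 7 members with an unadjusted p under 0.05 were among them. The mean of the 15 differed by 0.32 ± 0.36 (SD, n = 8) in control pairs, 6 of 8 higher, by -0.06 ± 0.30 (n = 6) in CHL pairs and by 0.07 ± 0.29 (n = 6) in FO pairs. The smooth muscle markers were likewise furthest apart in control and least in CHL pairs. In control animals their mean level ran from 7.72 to 10.83 in native and from 8.24 to 10.97 in regenerated cells, with 8 of 8 genes higher and 1, ACTA2, past the threshold. Their part in the result was not tested.

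RPL7, a large-subunit protein, had 2 probe sets that went apart. One, described as a transcribed locus and called the locus probe set here, ranged in native control cells from 7.55 through a median of 8.60 to 10.80, and in regenerated control cells from 8.36 through 10.47 to 10.95. The ranges overlapped, but 5 of 8 animals were higher by 1.14 to 3.31, and the other 3 were within 0.06 of 0. The difference was 1.21 (SE 0.32), a 2.31-fold higher signal, with a limma adjusted p of 0.0614. In CHL pairs it was 0.29 (SE 0.37, adjusted p = 0.94) and in FO pairs 0.57 (SE 0.37, adjusted p = 0.649). The other RPL7 probe set is described as ribosomal protein L7. It ranged from 13.14 through 13.50 to 13.87 in native and from 13.13 through 13.63 to 13.87 in regenerated control cells, a difference of -0.01. Across 40 arrays, deviations from the group means of these probe sets had a Pearson correlation of -0.242, a description in which arrays share scaling and animals give 2 arrays each.

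Of the 3 control animals near 0 on the RPL7 locus probe set, animals 7 and 8 are the controls with 3-digit labels. Each had a difference of -0.05, and in a fit on 3-digit animals alone the control difference was -0.05. The smooth muscle markers differed by -0.01 in animal 8 and by -0.04 in animal 3, the third of these animals, but by 1.004 in animal 7. In animal 5, where the locus probe set differed most (3.31), the markers differed by 3.18. The actin 3′/5′ ratio of animal 5 was 6.89 on the regenerated and 1.43 on the native array. In animal 6, where the locus probe set differed by 1.521, the ratios were 264 and 1.52. They were 4.48 and 1.39 in animal 4, and 3.15 and 1.34 in animal 2. Animal 1, also higher on the locus probe set (1.302), had 1.33 and 1.48. On the regenerated arrays of animals 3, 7 and 8 the ratios were 1.83, 2.68 and 2.31. The part of this ratio was not tested.

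RPS23, which sits at the decoding centre and bears on reading accuracy, also had 2 probe sets, both described as transcribed loci. The brighter one ranged from 10.17 through 10.64 to 11.52 in native and from 10.56 through 11.50 to 11.93 in regenerated control cells. It was higher in 16 of 20 animals, including 6 of 6 CHL animals, and the groups overlapped. The mean difference over the 3 diets was 0.42 (SE 0.12; adjusted p = 0.0501), made of 0.64 (SE 0.18; adjusted p = 0.0636) in control, 0.38 (SE 0.21) in CHL and 0.26 in FO pairs. Leaving out control animal 3, control animal 8 or FO animal 6 brought the control difference past the threshold, and on 3-digit animals alone it was -0.06.

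The dimmer RPS23 probe set had opposite signs in control and CHL pairs. In control cells it ranged from 7.14 through 8.50 to 10.70 in native and from 8.02 through 9.92 to 11.12 in regenerated arrays. In CHL cells it ranged from 8.27 through 9.75 to 11.35 and from 8.06 through 8.91 to 9.91. The control difference was 1.04 (SE 0.43; adjusted p = 0.131) and the CHL difference -0.71 (SE 0.50; adjusted p = 0.859). The difference between them was -1.75 (SE 0.66; limma adjusted p = 0.316), which did not pass the threshold. CHL animals 1 and 3 carried the negative value, with differences of -2.14 and -2.80, while 3 of the 6 CHL animals were above 0.

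RPS15, which reaches towards the decoding site, was the member with the most negative mean difference. Its probe set is described as a transcribed locus, with no protein named. It ranged from 11.09 through 11.56 to 11.75 in native and from 10.53 through 11.31 to 11.87 in regenerated control cells. In CHL cells it ranged from 11.29 through 11.84 to 12.11 and from 10.95 through 11.34 to 11.73, and in FO cells from 11.42 through 11.59 to 11.97 and from 10.39 through 11.39 to 11.76. It was lower in regenerated cells in 17 of 20 animals, and the ranges overlapped in each diet. The mean difference was -0.36 (SE 0.10), with a limma adjusted p of 0.0501, just outside the threshold. It passed with a pseudocount of 64, with quantile normalization, and without control animal 7 or 8, CHL animal 6 or FO animal 4. In the fit on 3-digit animals alone the control difference was 0.28, with values of 0.57 and 0.00 in animals 7 and 8.

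RPS20, a protein of the small-subunit head, was probed by a set described as a transcribed locus and by another with no description. The locus probe set ranged from 9.66 through 10.40 to 10.83 in native and from 10.42 through 10.68 to 11.01 in regenerated control cells, and it was higher in 16 of 20 animals. Its mean difference was 0.32 (SE 0.09; limma adjusted p = 0.0624). RPS4, whose probe set is described as beta-catenin, was lower in 16 of 20 animals and in 6 of 6 FO animals, with a mean difference of -0.20 (SE 0.07; adjusted p = 0.0993). Its title and its description name unrelated proteins, so its values belong to either.

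**Figure D3:**
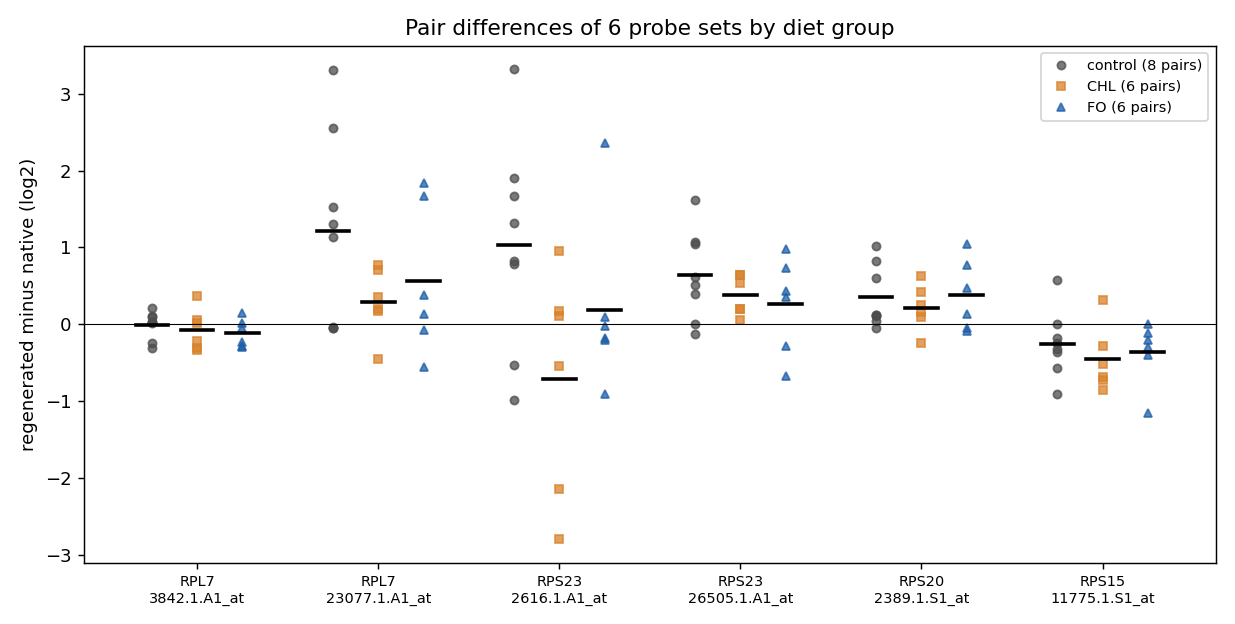
Difference between regenerated and native cells (log2) in each animal for 6 probe sets, with control pairs as grey circles, CHL pairs as orange squares, FO pairs as blue triangles and group means as black bars. Array identifiers stand under the gene names. The described RPL7 probe set (first from the left) stays near 0, the RPL7 locus probe set beside it reaches 3.31 in control animal 5, and RPS15 (last) is mostly below 0.

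Among the described probe sets, the largest paired values were on the dimmer probe sets of RPL10A (mean level 6.44) and RPL6 (mean level 10.51). RPL10A, the protein of the mobile L1 stalk, had a dim probe set that ranged from 5.54 through 6.32 to 6.87 in native and from 6.39 through 6.56 to 7.07 in regenerated CHL cells. All 6 CHL animals were higher, by 0.39 on average (SE 0.18; limma adjusted p = 0.779), and animal 5 alone was higher by 0.94. The bright RPL10A probe set lay at 13.92 ± 0.31 (SD, n = 6) and 13.87 ± 0.38 (n = 6) in the same cells. RPL6, a large-subunit protein, had a log2 difference of -0.46 in FO pairs on the dimmer of its 2 probe sets (SE 0.17; adjusted p = 0.495), with 4 of 6 animals lower.

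The second question was whether the regeneration difference changed with diet. Between CHL and control, FO and control, and CHL and FO pairs, 0 of 41 members passed in limma, and 0% of all probe sets passed in each of these comparisons. At an unadjusted p under 0.05 there were 2, 0 and 1 members. The 2 in the first comparison had the smallest adjusted p of 0.316, that of the dimmer RPS23 probe set. The RPL7 locus probe set differed by -0.92 (SE 0.49; adjusted p = 0.372) between CHL and control pairs, and on 3-digit animals alone by 0.49, the opposite direction.

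The third question was whether cells of the same kind differed between diets. In native cells 0 of 41 members passed between CHL and control, where 0.0111% of all probe sets passed, and 0 of 41 passed between FO and control and between CHL and FO, where 0% passed. In regenerated cells 0 of 41 passed in each of the same 3 comparisons, again with 0% of all. At an unadjusted p under 0.05, limma gave 1, 1 and 0 members in native cells and 2, 1 and 0 in regenerated cells.

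The 26 described probe sets nevertheless leaned one way in several of these comparisons. In native cells they were higher in CHL than in control cells for 21 of 26, with a median of 0.12 against -0.03 for all probe sets. In regenerated cells they were higher in CHL than in control cells for 22 of 26 (median 0.15, all 0.02) and higher in CHL than in FO cells for 25 of 26 (median 0.22, all 0.02). Of all probe sets 46.1%, 52.5% and 52.9% were higher in these comparisons, in that order. All 15 described large-subunit probe sets were higher in regenerated CHL than FO cells, by a median of 0.20, and all 11 described small-subunit probe sets were higher in CHL than control cells of both kinds. Of the 35 tested probe sets outside the rule, 30 were higher in regenerated CHL than FO cells, with a median of 0.22. These comparisons share their groups, and the probe sets share their arrays.

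Parts of the lean changed with the arrays used. Without CHL animal 1 the median of the 26 in regenerated cells was 0.10 between CHL and FO (24 of 26 higher) and 0.04 between CHL and control (17 of 26 higher), and in native cells it was 0.04 between CHL and control (16 of 26 higher). On 3-digit animals alone native CHL and control cells differed by 0.14 (25 of 26 higher) and regenerated CHL and FO cells by 0.145 (24 of 26 higher), while regenerated CHL and control cells differed by -0.02 (11 of 26 higher). Without FO animal 4 the median between native CHL and FO cells turned from 0.13 to -0.05. With quantile normalization the regenerated CHL and FO cells differed by 0.04 (18 of 26 higher) and the regenerated CHL and control cells by 0.00 (-0.004, 12 of 26 higher). Native CHL and control cells differed there by 0.043 (19 of 26 higher). Without the 2 animals with a high actin ratio the regenerated CHL and FO cells differed by 0.13, with 24 of 26 higher, and the native CHL and control cells by 0.17, with 22 of 26 higher.

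The ribosomal protein level of an array moved with the brightness of its other bright probe sets. The 99th percentile of all probe sets not titled or described as ribosomal proteins had a Pearson correlation of 0.803 and a Spearman correlation of 0.812 with the mean of the 26 across 40 arrays. The authors' annotation covered 11814 of the 24123 probe sets, so these others can still include ribosomal protein probe sets. RPLP0, FAU and GNB2L1, subunit genes outside the rule, are among them. With deviations from the group means these were 0.837 and 0.849, and across the 20 differences between paired arrays 0.842 and 0.908. Without the 2 arrays farthest from the median percentile the Pearson correlation was 0.79, and without the 2 farthest pairs 0.819. The 99th percentile over tested probe sets was also subtracted from each array. The mean of the 26 was then -0.404 ± 0.131 (SD, n = 8) in native control and -0.417 ± 0.22 (n = 6) in native CHL cells. In regenerated cells it was -0.441 ± 0.094 (n = 8) and -0.443 ± 0.214 (n = 6). FO means were -0.531 ± 0.318 (n = 6) in native and -0.559 ± 0.148 (n = 6) in regenerated cells. By this measure CHL means were not above control means, while FO means were lowest. The arrays share the MAS5 scaling to 1 trimmed mean and each animal gives 2 arrays, so these are descriptions. The mean of the 26 had a Pearson correlation of -0.216 with the smooth muscle markers and of -0.029 with the endothelial markers.

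**Figure D4:**
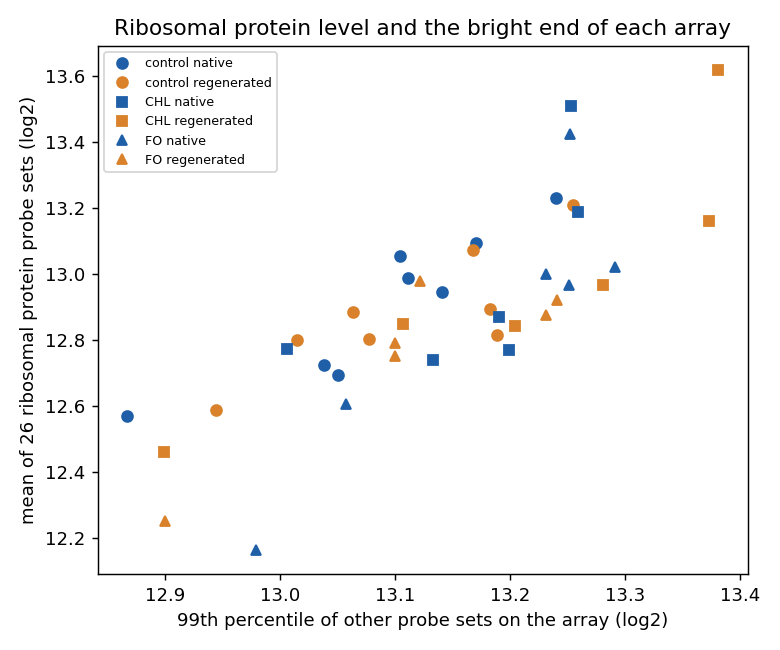
Mean log2 level of the 26 described ribosomal protein probe sets against the 99th percentile of the log2 levels of probe sets that are neither titled nor described as ribosomal proteins, 1 point per array; circles are control, squares CHL and triangles FO, blue native and orange regenerated. Arrays with a brighter upper end have higher ribosomal protein levels (Pearson r 0.803 over 40 arrays).

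The described probe sets also moved together. The median correlation between any 2 of them, over deviations from group means on 40 arrays, was 0.723, and each correlated with the mean of the others with a median of 0.9. RPL18, a large-subunit protein, had the highest value, 0.95, and the dimmer RPS28 probe set the lowest, -0.043. The dim RPL10A probe set had 0.12. The 35 tested probe sets outside the rule had a median of 0.806 with the mean of the 26. All other tested probe sets had a median of -0.031 and a highest value of 0.963.

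The other 15 members did not share this pattern as a set, with a median correlation of -0.062 with the mean of the 26, but 3 of them did. RPL10, described as a hypothetical protein, had 0.955, and the RPL35 probe sets, described as RAB5A, had 0.873 and 0.831. RPS4, described as beta-catenin, had 0.402, and the RPS20 locus probe set had -0.697. The described RPS29 probe set had correlations of 0.495 and 0.082 with the others of that gene. The 2 described RPS18 probe sets correlated at 0.82 with each other and at -0.136 to -0.046 with the 2 described as a hypothetical protein. By mean level over the 6 groups, the profile of the described RPS29 probe set was most like the mean of the members (Pearson 0.942 over 6 groups), and that of the brighter RPS18 probe set described as a hypothetical protein was least like it (-0.965).

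A group of 5 dimmer large-subunit probe sets differed with the form of the animal labels. The probe sets, chosen after their values were seen and so given with no test, are RPL32, RPL23 (which bridges the subunits and binds MDM2), RPL12 (at the base of the stalk that recruits elongation factors), and the dimmer of the 2 probe sets of RPL35 and of RPL6. RPL32 averaged 10.96 on the 10 MA arrays, 11.14 on the 6 arrays with 4-digit labels and 9.90 on the 24 arrays with 3-digit labels. The dimmer RPL35 probe set averaged 10.89, 11.39 and 9.79, and the dimmer RPL6 probe set averaged 11.08, 11.19 and 10.10. For each of the 5 the 3-digit arrays averaged lowest, although individual arrays overlapped.

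The bright partners differed less between the forms. The brighter RPL6 probe set averaged 13.61, 13.91 and 13.62 on MA, 4-digit and 3-digit arrays, and the brighter RPL35 probe set averaged 14.26, 14.40 and 14.19, also lowest on 3-digit arrays. The division was present within the control diet, where MA arrays exceeded 3-digit arrays by 0.75 (RPL12) to 1.18 (RPL32) for the 5 probe sets. Other members went the opposite way there, among them the RPL7 locus probe set by -1.14, the RPS20 probe set with no description by -1.03 and the brighter RPS29 locus probe set by -0.71.

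**Figure D5:**
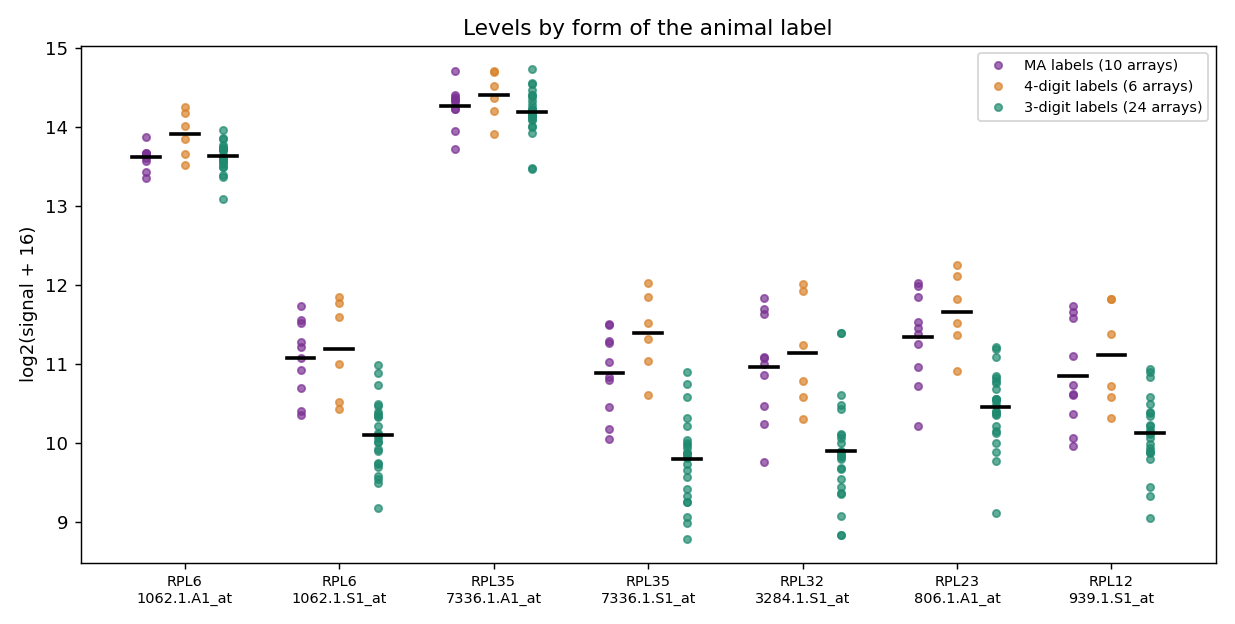
Levels, log2(signal + 16), of 7 large-subunit probe sets on arrays whose animals carry MA (purple, 10 arrays), 4-digit (orange, 6 arrays) or 3-digit labels (green, 24 arrays), with means as black bars. The 5 probe sets near 10 to 12 are lowest on 3-digit arrays, for example RPL32 with 9.90 against 10.96 on MA arrays, while the bright RPL6 and RPL35 probe sets at the level of 13 to 15 differ less, with RPL35 at 14.26, 14.40 and 14.19.

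This bears on comparisons of diets, since 5 of 8 controls have MA labels and no CHL or FO animal has them. RPL32 was lower in native FO than native control cells by 0.78 (log2 difference -0.78, SE 0.44; limma adjusted p = 0.627), and on 3-digit animals alone the difference was -0.06. The dimmer RPL35 probe set differed by -0.76 (SE 0.42; adjusted p = 0.622) and on 3-digit animals by -0.24. In regenerated cells the dimmer RPL6 probe set differed by -0.77 between FO and control (SE 0.32; limma adjusted p = 0.97) and on 3-digit animals by -0.35. In native cells of CHL and control animals, the dimmer RPL35 probe set differed by -0.49 and the dimmer RPL6 probe set by -0.43, and on 3-digit animals by 0.02 and 0.12. Within the label form these diet differences were smaller or turned, and 2 controls carry it.

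Other genes of the translation machinery were followed from lists, with 0 members passing in any of the 13 comparisons. Of subunit genes outside the rule, RPLP0 (the stalk protein), FAU (a ribosomal protein made as a ubiquitin-like fusion) and GNB2L1 (the small-subunit scaffold RACK1) had mean paired differences from -0.10 to -0.05, all 3 lower. The 4 measured elongation and TOP genes EEF1A1, TPT1, PABPC1 and NACA had differences from -0.12 to -0.01. These lie in the range of the described ribosomal proteins, whose median over the 3 diets was -0.05.

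Genes of initiation and ribosome biogenesis had larger single values. In the mean of the 3 diets 51.1% of all probe sets were lower in regenerated cells. Of 6 initiation factors 5 were lower there, though 4 of 6 were higher in CHL pairs. Among the 5 was EIF3E, a subunit of the scaffold factor eIF3, with a difference of -0.22 (SE 0.06; limma adjusted p = 0.0501). EIF4E, which binds the messenger RNA cap, differed by -0.59 (SE 0.19; adjusted p = 0.0827), made of -0.92 in control, 0.07 in CHL and -0.91 in FO pairs. Of 5 genes of a ribosome biogenesis list, which includes the transcription factor MYC (-0.22), 4 were lower, with DKC1, the pseudouridine synthase of ribosomal RNA, at -0.26 (SE 0.09; adjusted p = 0.0944) and BYSL, a small-subunit assembly factor, at -0.66 (SE 0.28; adjusted p = 0.16; 0.12 in CHL pairs). Of 13 mitochondrial ribosomal protein genes 10 were lower, with a median of -0.12, and MRPL18 had the smallest adjusted p, 0.0752, with a difference of -0.38 (SE 0.12). None of these passed the threshold.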

How the data were processed

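The deposited values are linear MAS5 intensities, per the submitters' processing notes (their version is not given in the sources used here), and each array had been scaled to a 2% trimmed mean of 500.1. They were analysed as log2(signal + 16), so that differences of dim probe sets are understated. After removal of 124 Affymetrix control probe sets and of those at or below the 25th percentile of mean level, 17999 probe sets remained, all 41 members among them. limma 3.58.1 in R 4.3.3 (lmFit, eBayes) gave two-sided p-values, adjusted by Benjamini-Hochberg within each of 13 comparisons over all tested probe sets, at a threshold of 0.05. Cell types were compared on all 40 arrays with a fixed animal term, as the design text describes pairs within animals, and diets on the 20 arrays of a cell type. As a check of the pairing, 17 of 20 pairs had array deviations correlated over 0.1 (median of the 20 pairs 0.514), and 3 pairs were below 0. Native and regenerated arrays of different animals of a diet had a median of -0.053. The check thus did not bear out the pairing of those 3. All 20 pairs stayed in the reported fits, so pair values given above can come from those 3. P-values measure the spread between animals. The fit was tested on simulated data.

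Titles came from the authors' deposited tables, without 1 table whose titles went against the others. Members are named in the text by the extremes of each comparison, by a list of well-studied ribosomal proteins and by likeness of profile, and the few others named were chosen after their values were seen. The members, gene lists and tests were chosen with earlier results of these data known. Some values of single genes are not reported here. Alternatives were other pseudocounts, quantile normalization, no filter, no block, 1 animal left out, and animals of 1 label form. Figures were drawn with matplotlib 3.10.9 in Python 3.11.15.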

Additional observations from a re-analysis of the deposited data

Results flagged for a closer look

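Of 61 sets of values examined (members and their mean, by diet or group), 5 held a value far from the rest of its group by Dixon's test, where chance gives about 1 in 20. The mean of the 26 described probe sets was 12.251 on the regenerated array of FO animal 3, against 12.751 on the next, and this array has an actin 3′/5′ ratio of 422. The same mean differed between regenerated and native cells of FO animal 4 by 0.588, against -0.079 in the next animal. RPL10 differed by -0.562 in control animal 6, whose regenerated array has an actin ratio of 264, against -0.121 in the next. The dim RPL10A probe set differed by 0.942 in CHL animal 5, against 0.377 in the next. RPS15 differed by -1.153 in FO animal 1, against -0.405 in the next. The part of RNA quality in these values was not tested.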

How the results depend on the processing

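Under each alternative run, 0 of 41 members passed in 11 of the 13 comparisons. In control pairs, leaving out 1 animal gave 0 to 5 members (3 without control animal 3, 5 without control animal 8 and 2 without FO animal 6). In the mean of the diets it gave 0 to 4, and a pseudocount of 64 and quantile normalization gave 3 each: RPS15, the brighter RPS23 probe set and the RPS20 locus probe set. The share of all probe sets passing in these fits is not given here, so the counts show nothing particular to the members. As reported, 27.2% of all probe sets and 17.1% of the members had an unadjusted limma p under 0.05 in control pairs. Without the replicate block 0 members passed in the paired comparisons and their differences, and the block changed no call.

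Over the 15 members not described as ribosomal proteins the median was 0.349 in control pairs, -0.274 for CHL against control pairs, -0.325 between regenerated CHL and control cells and -0.044 between regenerated CHL and FO cells, against -0.014, 0.003, 0.095 and 0.204 over all 41. The division came after the data were seen, as did the restriction to 3-digit labels, and the cause was not tested.

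Of 64 results for named members, 20 changed sign under some alternative. On 3-digit animals alone the control difference was 0.285 for RPS15 (0.001 on artery-named animals), 0.081 for RPL32, 0.188 for RPL12, -0.05 for the RPL7 locus probe set and -0.064 for the brighter RPS23 probe set. The mean of the diets there was 0.008 for RPL12, 0.05 for RPL10, 0.045 for RPL11, 0.034 for RPL23, 0.051 for RPS3 and 0.009 for RPSA. Without the animals with degraded RNA it was 0.017 for RPL10, 0.023 for RPL11 and 0.039 for RPS3, and RPS3 ran from -0.054 to 0.013 with single animals left out. The CHL against control difference of the RPL7 locus probe set was 0.487 on 3-digit animals, and its FO against control difference 0.394 (0.092 on artery-named animals). There, the dimmer RPS23 probe set had 0.061 and RPL32 -0.065, with -0.101 to 0.242 when single animals were left out. In native CHL against control cells, 3-digit animals gave 0.018 for the dimmer RPL35, 0.12 for the dimmer RPL6 (0.074 on artery-named animals) and -0.169 for the brighter RPS29 locus probe set. In regenerated cells RPL18 had -0.004 for CHL against control, and the RPS20 probe set with no description 0.177 for CHL against FO, with -0.614 to 0.13 when single animals were left out. None of these 20 passed the threshold as reported. The number of animals limits the precision, with a median SE of a member's difference of 0.127 in control and 0.147 in CHL and FO pairs.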
